A study of Homo sapiens with 12 samples.

Results

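Lysosomal hydrolases and membrane proteins were followed in 2 kidney carcinoma cell lines after knockdown of the kinetochore gene NUF2. The set was chosen by gene name and held 40 of the 58302 genes in the files. It comprised 12 glycosidases, 5 sulfatases, 6 lipid hydrolases and sphingolipid cofactors, 10 proteases including the protective protein CTSA, 6 membrane and cholesterol transport proteins, and 1 transcription factor, TFEB. FUCA2 was singled out because its rise in these same libraries was already known, so its values are a description and not independent evidence.

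The 12 RNA-seq libraries came from 769-P and ACHN, both established lines that the labels call ccRCC. Cells of each line received either si-NUF2, a mixture of 2 siRNAs against NUF2, or the control si-NC, and RNA was taken after 48 h. Each of the 4 groups had 3 replicates, and no untransfected cells were analysed here. With 1 siRNA mixture and 1 control, an effect of the sequences and an effect of NUF2 loss cannot be told apart. The labels do not say that replicates were separate cultures, so the p-values measure only the spread between these libraries. In bulk RNA, a change of the cells in the culture and a change of RNA per cell cannot be told apart either.

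Lysosomes are acidic organelles in which hydrolases break down glycans, lipids and proteins delivered by endocytosis and autophagy. Most soluble hydrolases carry a mannose 6-phosphate tag for sorting from the Golgi, and their products leave through transporters in the lysosomal membrane. TFEB and its relatives bind E-box elements of the CLEAR type in many lysosomal promoters, which couples the genes to nutrient signalling through mTORC1.

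NUF2 itself, a subunit of the NDC80 kinetochore complex, was at 4.17, 3.86 and 3.01 FPKM after si-NUF2 in 769-P against 19.4, 17.8 and 17.8 with si-NC (log2 fold change -2.29, adjusted p = 0.0012 in limma). In ACHN its levels were 2.16, 5.14 and 4.25 FPKM after si-NUF2 against 11.6, 15.0 and 14.8. Its log2 fold change there was -1.87 (adjusted p = 0.22, and 0.012 with replicates of the same number as a block, in limma), and the groups did not overlap in either line. FPKM are fragments per kilobase of transcript, scaled to the depth of a library. Fragments recovered from the FPKM ran from 29244018 to 38864846 per library, and every member tested between the siRNAs of a line had at least 98 fragments in each library of 769-P and at least 108 in each library of ACHN. The summed level of 9 renal epithelial and carcinoma markers was between 437 and 713 FPKM. These were PAX8, PAX2, CA9, VIM, KRT8, KRT18, CDH2, CDH6 and LHX1, and the sum does not show the level of each. Of the 8 tested in 769-P without the block, 0 were called higher. PAX8 was called lower, where 4.74% of all genes were. CA9, a marker of clear cell carcinoma, was under 0.5 FPKM in all 4 groups, and CDH6, a renal cadherin, in both groups of ACHN. Of markers of other cell types, 9 immune and endothelial markers were all under 0.5 FPKM in every group, 3 of them at 0.

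Replicates with the same number resembled each other across the siRNAs, most of all in ACHN. The same replicate number was highest in both siRNA groups for 34 of the 39 members tested in ACHN and for 27 of the 38 in 769-P, against 69.4% and 55.7% of all genes tested. In ACHN that number was replicate 1 for 27 members. CTSB, a cysteine protease, was at 168, 29.6 and 63.8 FPKM with si-NC and at 143, 29.9 and 50.0 with si-NUF2, so its replicates spanned far more than the siRNAs did. For this reason each change is given from a fit of the 6 libraries of a line and, where the call differs, also from a fit in which same-numbered libraries form a block.

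Promoters were available for 29 of the 40 members, as RefSeq windows of 300 bases on GRCh38.p14 that run from 250 bases before the start to 50 after it. The E-box CACGTG stood in 8 of the 29 (27.6%: CTSA, CTSD, CTSF, GAA, GALNS, LAMP1, MCOLN1 and NEU1) and in 7.43% of all 27305 promoters. The longer CLEAR core TCACGTGA, which contains the E-box, stood in 5 of the 29 (17.2%: CTSA, GAA, GALNS, LAMP1 and MCOLN1) and in 1.04% of all promoters. Both motifs read the same on either strand. The windows below show NEU1 and CTSA, which fell in 769-P. They also show LAMP1, the window with the most CACGTG (6), and PPT1, the member with the largest rise, with no CACGTG. LAMP2, which also fell in 769-P, had no window among the 29. The window of FUCA2, which also rose, held 0 CACGTG. Other forms of the E-box were not searched for. Each window is written 5′ to 3′ on the strand of the gene, and capitals mark each CACGTG.
NEU1, chr6:31862772-31863071, minus strand: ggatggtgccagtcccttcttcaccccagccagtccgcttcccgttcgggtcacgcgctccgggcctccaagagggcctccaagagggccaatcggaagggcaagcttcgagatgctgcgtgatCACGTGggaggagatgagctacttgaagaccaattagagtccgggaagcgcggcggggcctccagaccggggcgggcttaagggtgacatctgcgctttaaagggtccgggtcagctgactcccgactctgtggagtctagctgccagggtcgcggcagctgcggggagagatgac
CTSA, chr20:45891085-45891384, plus strand: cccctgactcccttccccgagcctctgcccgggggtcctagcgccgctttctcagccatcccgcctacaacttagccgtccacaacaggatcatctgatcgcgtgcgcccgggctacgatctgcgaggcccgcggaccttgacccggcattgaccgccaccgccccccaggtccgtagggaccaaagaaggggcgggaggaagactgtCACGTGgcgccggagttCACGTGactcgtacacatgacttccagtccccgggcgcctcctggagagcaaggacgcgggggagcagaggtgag
LAMP1, chr13:113296989-113297288, plus strand: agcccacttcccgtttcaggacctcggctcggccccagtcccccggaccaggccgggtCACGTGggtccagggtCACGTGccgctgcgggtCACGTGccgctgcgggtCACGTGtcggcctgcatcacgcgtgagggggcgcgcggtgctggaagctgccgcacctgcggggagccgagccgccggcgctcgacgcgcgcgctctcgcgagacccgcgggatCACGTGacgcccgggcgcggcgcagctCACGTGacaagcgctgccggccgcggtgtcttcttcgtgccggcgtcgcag
PPT1, chr1:40097203-40097502, minus strand: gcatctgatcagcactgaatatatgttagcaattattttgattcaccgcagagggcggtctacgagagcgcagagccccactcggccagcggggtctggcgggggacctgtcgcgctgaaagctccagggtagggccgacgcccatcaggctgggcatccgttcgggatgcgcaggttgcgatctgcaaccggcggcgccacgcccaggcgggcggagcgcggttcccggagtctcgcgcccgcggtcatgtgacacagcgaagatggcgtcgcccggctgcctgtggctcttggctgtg
The CACGTG of NEU1 began at position -126 relative to the start, and those of CTSA at -42 and -25. A match of letters is a description and not evidence of binding.

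In 769-P, few of the lysosomal genes were called in the fit without the block, and those that were moved in both directions. FUCA2 and PPT1 rose, and NEU1, CTSA and LAMP2 fell, at an adjusted p under 0.05 in limma. These were 2 of 38 tested members higher (5.26%), where 5.29% of all 14160 genes tested were, and 3 lower (7.89%), where 4.74% of all genes were. Limma fits a linear model to each gene with a spread informed by all genes, here on log2(FPKM + 0.1), and SE is the standard error of its log2 fold change. The median log2 fold change was 0.04 over the members and -0.01 over all genes. CTSF and CTSS did not reach 0.5 FPKM in 3 of the 6 libraries of 769-P and were not tested. An unadjusted p under 0.05 was reached by 11 of the 38 members and by 27.5% of all genes. The counts rested on single libraries: without si-NC replicate 2, 0 members were higher and only NEU1 was lower, and without si-NUF2 replicate 2 or si-NC replicate 3, 1 member was lower. Without si-NUF2 replicate 1, si-NUF2 replicate 3 or si-NC replicate 3, 1 member was higher.

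With the replicate block, 7 members (18.4%) were higher (CTSZ, FUCA2, GAA, LAMP1, LIPA, NPC2 and PPT1) against 13.6% of all genes, and 6 (15.8%) were lower (ASAH1, CTSA, IDUA, LAMP2, MCOLN1 and NEU1) against 14% of all genes. Among the 38 tested members, the 3 libraries of each siRNA did not overlap for 4 (10.5%) that were higher (FUCA2, LAMP1, NPC2 and PPT1), as for 16.6% of all genes, and for 6 (15.8%) that were lower (ASAH1, CTSA, IDUA, LAMP2, MCOLN1 and NEU1), as for 16.5%. With the block, leaving out replicate 1 or replicate 2 left 2 members higher and 3 lower, and leaving out replicate 3 left 5 and 6. The summed level of 15 interferon-stimulated genes moved with the siRNA in the same libraries, at 88.8 to 128 FPKM with si-NC and 169 to 493 with si-NUF2, and its part in the lysosomal changes was not tested.

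In ACHN, the fit without the block called 0 of 39 members higher, where 0% of all 15116 genes were, and 0 lower, again against 0% of all genes. CTSF was not tested. An unadjusted p under 0.05 was reached by 4 members and by 8.19% of all genes, and limma-voom on the recovered fragments also called 0 members. The median log2 fold change was -0.04 over the members and 0.01 over all genes.

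With the replicate block in ACHN, FUCA2 and PPT1 were higher (5.13% of members), where 7.14% of all genes were. CTSA, CTSS, IDUA, LAMP2, MCOLN1, NEU1 and PSAP were lower (17.9% of members), where 5.05% of all genes were. The siRNA groups did not overlap for 2 members that were higher (FUCA2 and PPT1), against 8.86% of all genes, and for 4 that were lower (CTSA, GLB1, IDUA and NEU1), against 5.74%. These block calls rested on all 3 pairs and on the filter. Without replicate 1, without replicate 3 or with no filter on low levels, 0 members were called in either direction, and without replicate 2 only PPT1 and CTSS were called. The summed interferon-stimulated genes were at 223 to 306 FPKM after si-NUF2 and 269 to 368 with si-NC in ACHN.

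**Figure D1:**
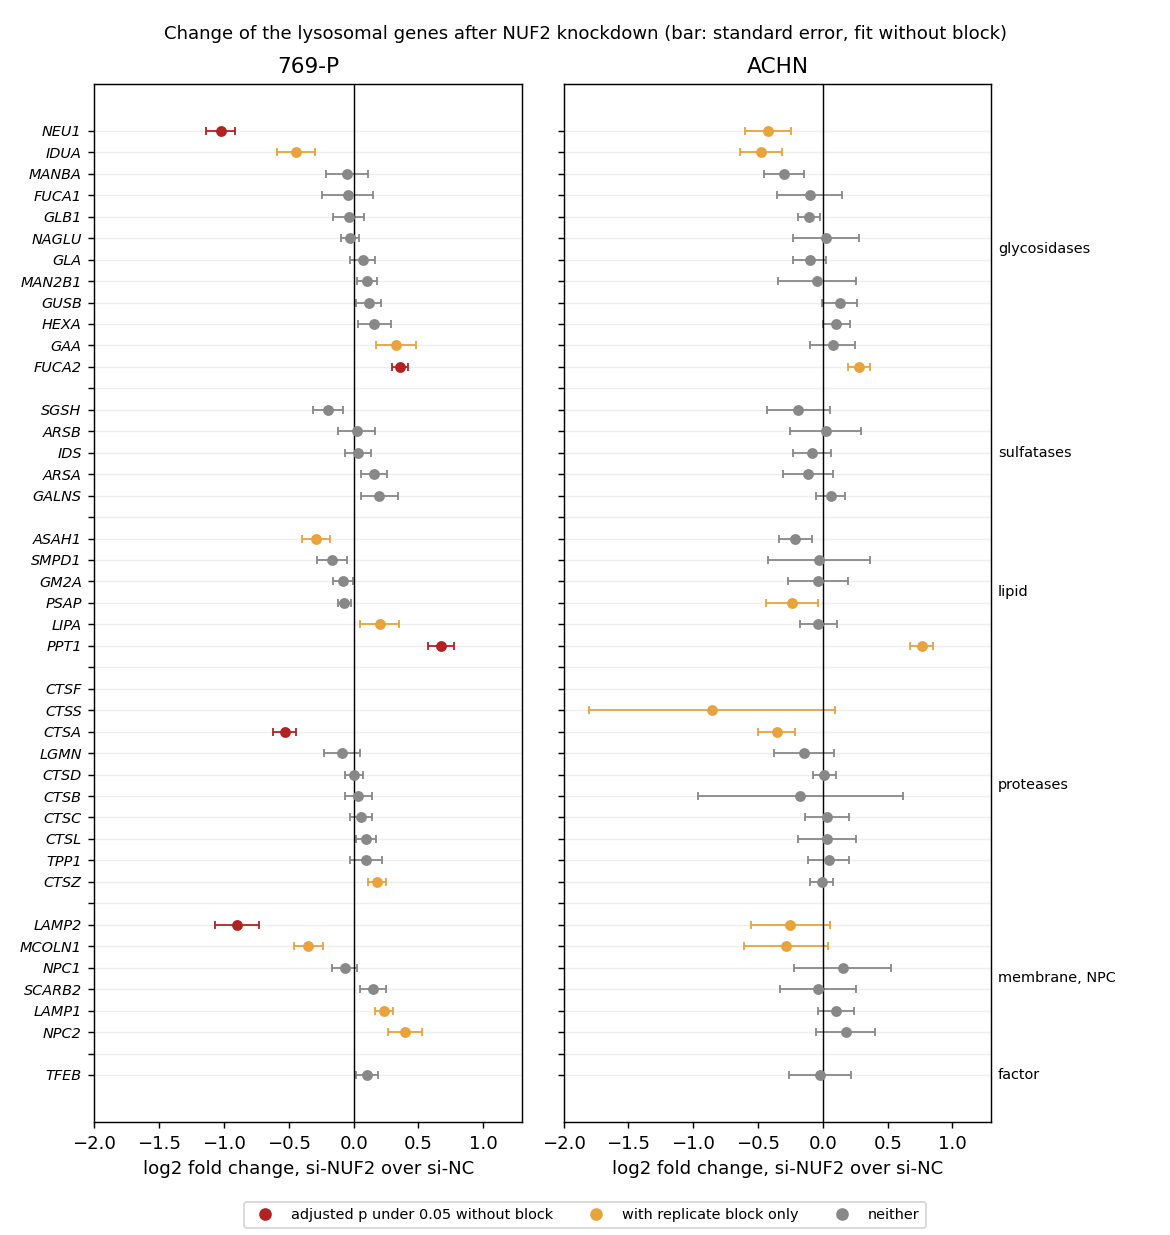
Log2 fold change of each lysosomal gene with si-NUF2 over si-NC (horizontal axis) by role, with its standard error from the fit without the block (bars), in 769-P (left) and ACHN (right), 3 libraries per group. Red points passed an adjusted p under 0.05 without the block, orange points only with it, and most members lie near 0. CTSF in both lines and CTSS in 769-P have no point because they were not tested.

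Among the 12 glycosidases, those called in 769-P without the block were NEU1, which fell, and FUCA2, which rose by less. NEU1 is the lysosomal sialidase, which removes terminal sialic acid from glycoproteins and glycolipids and works in a complex with CTSA (ENSG00000204386, hg38 chromosome 6, 31857659 to 31862906, minus strand). In 769-P its levels were 10.2, 13.1 and 12.2 FPKM after si-NUF2 and 22.0, 25.2 and 25.6 with si-NC. The si-NUF2 mean was 48.7% of the si-NC mean, and all 3 si-NUF2 libraries lay below all 3 control libraries. Its log2 fold change was -1.03 (SE 0.11, adjusted p = 0.0054 in limma), and the call held in each of 14 alternative settings, with an adjusted p of at most 0.030.

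In ACHN, NEU1 was at 11.6, 11.4 and 9.24 FPKM after si-NUF2 and at 18.3, 13.8 and 12.2 with si-NC. The groups did not overlap there either, but the highest si-NUF2 library and the lowest control lay close together. On the log2 scale the change was -0.42 (SE 0.18, adjusted p = 0.62 in limma), and with the replicate block the adjusted p was 0.037. Without si-NC replicate 1 the change was -0.27 in the fit without the block.

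FUCA2, an alpha-L-fucosidase that is largely secreted, was higher with si-NUF2 in both lines (ENSG00000001036, hg38 chromosome 6, 143494811 to 143511690, minus strand). The 769-P libraries held 41.8, 41.3 and 44.2 FPKM after si-NUF2 and 33.5, 32.7 and 33.8 with si-NC. The ACHN libraries held 31.7, 32.4 and 34.4 FPKM after si-NUF2 against 26.5, 28.3 and 27.3. All si-NUF2 libraries of a line lay above all of its controls, and the exact two-sided permutation p was 0.1 in each line, the smallest that 3 against 3 can give.

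FUCA2 had a log2 change of 0.36 in 769-P (SE 0.06, adjusted p = 0.019 in limma) and 0.28 in ACHN (SE 0.08, adjusted p = 0.45 without the block and 0.032 with it). The si-NUF2 mean was 127% of the si-NC mean in 769-P and 120% in ACHN. In 769-P the adjusted p of FUCA2 rose to between 0.052 and 0.076 when any single library other than si-NC replicate 1 was left out. Of the exon bases of FUCA2, 16.9% also belong to AL031320.2 or VDAC1P8 on the opposite strand, both with group means of at most 1.43 FPKM, and whether the counting used strand is not given in the sources used here.

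FUCA1, the lysosomal alpha-L-fucosidase and closest relative of FUCA2 in the set, gave different values. Its levels in 769-P were 1.79, 2.38 and 2.21 FPKM after si-NUF2 against 1.63, 2.44 and 2.67 with si-NC, a log2 change of -0.05 (SE 0.20). Its levels in ACHN were 11.8, 7.05 and 8.24 FPKM after si-NUF2 against 12.2, 7.49 and 9.57, a log2 fold change of -0.10 (SE 0.25). The siRNA groups overlapped in both lines, and neither fit called FUCA1 in either line.

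IDUA, which cleaves iduronic acid from dermatan and heparan sulfate, was at 4.33, 4.89 and 3.91 FPKM after si-NUF2 against 6.04, 7.15 and 5.02 in 769-P. In ACHN its levels were 7.67, 8.57 and 6.53 FPKM after si-NUF2 against 12.2, 11.3 and 8.87. The groups did not overlap in either line. The log2 fold changes of -0.45 (SE 0.14) and -0.48 (SE 0.16) had adjusted p of 0.10 and 0.49 without the block and 0.011 and 0.021 with it, in limma. SLC26A1, an anion transporter gene on the opposite strand that shares 13.4% of the exon bases of IDUA, also fell in 769-P, by 1.02 on the log2 scale (adjusted p = 0.0039 in limma). In ACHN the log2 fold change of SLC26A1 was -0.52, with groups that did not overlap and an adjusted p in limma of 0.48 without the block and 0.0497 with it. Without a stated strand setting, reads over the shared bases cannot be assigned to IDUA or to SLC26A1.

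GAA, the acid alpha-glucosidase that degrades glycogen, was at 10.1, 13.8 and 12.3 FPKM after si-NUF2 and 8.47, 11.7 and 8.89 with si-NC in 769-P. Its groups overlapped, while each of the 3 pairs was higher with si-NUF2. Its log2 fold change was 0.33 (SE 0.15), with an adjusted p in limma of 0.22 without the block and 0.024 with it. In ACHN the log2 fold change of GAA was 0.08 (SE 0.17).

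The other 8 glycosidases (GLA, GLB1, GUSB, HEXA, MAN2B1, MANBA and NAGLU, with FUCA1 above) were called in neither line by either fit. GLA, GLB1 and HEXA act on glycosphingolipids, GUSB and NAGLU on glycosaminoglycans, and MAN2B1 and MANBA on the mannose residues of glycoproteins. Their log2 fold changes ran from -0.05 (MANBA) to 0.16 (HEXA) in 769-P and from -0.30 (MANBA) to 0.13 (GUSB) in ACHN. GLB1, the lysosomal beta-galactosidase, was at 24.6, 24.4 and 24.3 FPKM after si-NUF2 in ACHN and at 28.6, 26.1 and 25.5 with si-NC. These values did not overlap, yet the log2 fold change was -0.11 (SE 0.09, adjusted p = 0.87 in limma).

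None of the 5 sulfatases was called in either line by either fit. These enzymes (ARSA, ARSB, GALNS, IDS and SGSH) remove sulfate from sulfolipids and glycosaminoglycans, and all depend on activation by SUMF1. Their log2 fold changes ran from -0.20 (SGSH) to 0.20 (GALNS) in 769-P and from -0.19 (SGSH) to 0.06 (GALNS) in ACHN. The libraries of both siRNAs overlapped for all 5 in both lines.

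Among the lipid hydrolases and cofactors, PPT1 rose and was the member with the largest increase in both lines. PPT1 is the palmitoyl-protein thioesterase that removes fatty acids from S-acylated proteins (ENSG00000131238, hg38 chromosome 1, 40071461 to 40097727, minus strand). In 769-P its levels were 16.7, 15.5 and 19.7 FPKM after si-NUF2 and 10.7, 10.7 and 11.0 with si-NC. The ACHN libraries held 32.6, 31.7 and 33.7 FPKM after si-NUF2 against 18.6, 20.7 and 19.2. The groups lay far apart in both lines.

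PPT1 had a log2 change of 0.68 in 769-P (SE 0.10, adjusted p = 0.012 in limma) and 0.76 in ACHN (SE 0.09, adjusted p = 0.11 without the block and 0.012 with it). A fit of all 12 libraries together gave an adjusted p of 0.0048 for PPT1 in ACHN in limma. Of 14 alternatives to the ACHN fit without the block, 2 gave an adjusted p under 0.05, and the highest was 0.81. Its log2 change in these lay between 0.7234 and 0.8092. Of 7 alternatives to the ACHN fit with the block, 3 gave an adjusted p under 0.05. In 769-P the adjusted p of PPT1 was 0.053 without si-NC replicate 2. CAP1, a gene for an actin-binding protein on the opposite strand that shares 23.4% of the exon bases of PPT1, had log2 changes of -0.09 in 769-P and -0.16 in ACHN and was not called by either fit.

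ASAH1, the acid ceramidase, was at 4.39, 4.63 and 5.08 FPKM after si-NUF2 and 5.20, 5.68 and 6.59 with si-NC in 769-P, which did not overlap. On the log2 scale the change was -0.29 (SE 0.11), with an adjusted p in limma of 0.14 without the block and 0.022 with it. In ACHN it was -0.21 (SE 0.13, adjusted p = 0.062 with the block in limma).

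PSAP, the precursor of the saposins that present sphingolipids to their hydrolases, was the most abundant member in both lines. Levels in ACHN were 625, 457 and 529 FPKM after si-NUF2 and 799, 509 and 630 with si-NC. The groups overlapped, and within each pair the si-NUF2 library was lower. The log2 fold change was -0.24 (SE 0.20, adjusted p = 0.89 without the block and 0.044 with it, in limma). Without the block, leaving out si-NC replicate 1 gave -0.079, si-NUF2 replicate 2 gave -0.12, si-NUF2 replicate 1 gave -0.36 and si-NC replicate 2 gave -0.39. In 769-P it was -0.07 (SE 0.05, adjusted p = 0.17 with the block in limma).

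LIPA, the lysosomal acid lipase, was at 11.9, 15.1 and 16.6 FPKM after si-NUF2 and at 10.6, 13.2 and 14.4 with si-NC in 769-P. The groups overlapped, and the adjusted p of its log2 fold change of 0.20 (SE 0.15) was 0.45 without the block and 0.031 with it, in limma. Without the block, the log2 fold change was 0.083 with si-NC replicate 1 left out, 0.097 with si-NUF2 replicate 3 left out and 0.33 with si-NUF2 replicate 1 left out. The interferon-stimulated gene IFIT2 lies within the LIPA locus on the opposite strand, and its mean was 4.05 FPKM after si-NUF2 and 2.04 with si-NC in 769-P. IFIT2 and AL353751.1 together share 4.07% of the exon bases of LIPA. In ACHN the log2 fold change of LIPA was -0.04 (SE 0.14). SMPD1, the acid sphingomyelinase, and GM2A, the cofactor of HEXA for ganglioside GM2, were called in neither line by either fit, with log2 fold changes between -0.17 and -0.03.

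Among the proteases, CTSA was the member that fell without the block, and the cathepsins CTSS and CTSZ were called only with it. CTSA is a serine carboxypeptidase that protects NEU1 and the beta-galactosidase GLB1 in their complex (ENSG00000064601, hg38 chromosome 20, 45890144 to 45898820, plus strand). The 769-P libraries held 31.1, 31.1 and 35.1 FPKM after si-NUF2 and 43.2, 47.3 and 51.3 with si-NC. In ACHN its levels were 27.1, 26.2 and 21.6 FPKM after si-NUF2 against 36.8, 32.3 and 28.1. The groups did not overlap in either line.

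CTSA had a log2 change of -0.53 in 769-P (SE 0.09, adjusted p = 0.016 in limma) and -0.36 in ACHN (SE 0.14, adjusted p = 0.59 without the block and 0.019 with it). The adjusted p in 769-P was 0.056 without si-NUF2 replicate 2, 0.061 without si-NC replicate 2 and 0.054 without si-NC replicate 3, in limma. Of the exon bases of CTSA, 28.5% are shared with PLTP, NEURL2 or AL008726.1 on the opposite strand. PLTP, the phospholipid transfer protein gene, had means of 44.8 and 44.0 FPKM after si-NUF2 and si-NC in ACHN and of 0.582 and 0.674 FPKM in 769-P, and it was not called by either fit.

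CTSS, a cysteine protease of antigen-presenting cells, was at 1.60, 0.738 and 4.23 FPKM after si-NUF2 in ACHN and at 3.02, 1.01 and 10.8 with si-NC. Each si-NUF2 library was below its numbered partner, but the replicates spanned a wider range than the siRNAs. Its log2 fold change was -0.85 (SE 0.95, adjusted p = 0.95 without the block and 0.045 with it, in limma). In the fit without the block it came to -0.0027 without si-NC replicate 3, -0.29 without si-NUF2 replicate 2, -1.48 without si-NUF2 replicate 3 and -1.65 without si-NC replicate 2. In 769-P, CTSS lay between 0.0723 and 0.256 FPKM in all 6 libraries and was not tested.

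CTSZ, a carboxypeptidase among the cathepsins, was at 123, 113 and 121 FPKM after si-NUF2 and 113, 101 and 103 with si-NC in 769-P. On the log2 scale the change was 0.18 (SE 0.07), with an adjusted p in limma of 0.16 without the block and 0.034 with it, and in ACHN it was -0.01 (SE 0.09). CTSF was at 0 in all 6 si-NC libraries and at most 0.0399 FPKM after si-NUF2. The other proteases (the cysteine cathepsins CTSB, CTSC and CTSL, the asparaginyl endopeptidase LGMN, the tripeptidyl peptidase TPP1, and CTSD) were called in neither line by either fit, and their log2 fold changes lay between -0.17 and 0.10. The aspartic protease CTSD changed by 0.00 on the log2 scale in 769-P (SE 0.07) and by 0.01 in ACHN (SE 0.09), and 52.7% of its exon bases are shared with AC068580.3 or AC068580.4.

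The lysosome-associated membrane proteins LAMP1 and LAMP2 changed in opposite directions in 769-P with the replicate block. LAMP2, which also takes part in chaperone-mediated autophagy and in fusion of autophagosomes with lysosomes, was at 11.5, 13.2 and 14.8 FPKM after si-NUF2 and at 19.6, 24.6 and 30.8 with si-NC (ENSG00000005893, hg38 chromosome X, 120427827 to 120469365, minus strand). The si-NUF2 mean was 52.6% of the si-NC mean and the groups did not overlap. The log2 fold change was -0.90 (SE 0.17, adjusted p = 0.024 without the block and 0.0048 with it, in limma).

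The call of LAMP2 in 769-P without the block was lost when any single library other than si-NC replicate 1 was left out, with an adjusted p between 0.060 and 0.076 in limma, with no filter (0.065) and in the fit of all 12 libraries (0.090). In 7 alternatives to the fit with the block its adjusted p was at most 0.032. In ACHN, LAMP2 was at 22.6, 12.8 and 15.5 FPKM after si-NUF2 and at 27.9, 14.4 and 19.6 with si-NC. The groups overlapped, and the log2 fold change of -0.25 (SE 0.31) had an adjusted p in limma of 0.96 without the block and 0.042 with it. In the fit without the block it was -0.014 without si-NC replicate 1, -0.065 without si-NUF2 replicate 2, -0.48 without si-NC replicate 2 and -0.49 without si-NUF2 replicate 1.

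LAMP1, the most abundant of the membrane proteins here, was at 63.1, 62.5 and 71.2 FPKM after si-NUF2 and at 56.4, 55.9 and 55.7 with si-NC in 769-P. The groups did not overlap, and the log2 fold change of 0.24 (SE 0.07) had an adjusted p in limma of 0.081 without the block and 0.035 with it. Of 7 alternatives to the fit with the block, 3 gave LAMP1 an adjusted p under 0.05, and the highest was 0.11. The ACHN libraries held 95.4, 83.0 and 83.9 FPKM after si-NUF2 against 98.0, 79.0 and 71.7, with a log2 fold change of 0.10 (SE 0.14). The pair of replicate 1 in ACHN moved in the other direction from the other two.

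NPC2, which hands cholesterol to NPC1, was at 18.4, 13.9 and 18.6 FPKM after si-NUF2 and 13.4, 11.7 and 13.3 with si-NC in 769-P. Its log2 fold change was 0.40 (SE 0.13), with an adjusted p in limma of 0.10 without the block and 0.014 with it. Levels in ACHN were 25.9, 40.8 and 36.0 FPKM after si-NUF2 against 23.6, 36.2 and 32.1, with a log2 fold change of 0.17 (SE 0.23, adjusted p = 0.052 with the block in limma). NPC1, the membrane partner of NPC2, was not called in either line by either fit, with log2 fold changes of -0.07 (SE 0.10) and 0.15 (SE 0.37).

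MCOLN1, the lysosomal calcium channel, was at 3.38, 3.35 and 3.32 FPKM after si-NUF2 and 4.74, 4.58 and 3.72 with si-NC in 769-P. On the log2 scale the change was -0.35 (SE 0.11), with an adjusted p in limma of 0.092 without the block and 0.039 with it. In ACHN its levels were 5.58, 3.64 and 2.89 FPKM after si-NUF2 against 7.08, 4.23 and 3.71, with a log2 fold change of -0.28 (SE 0.32, adjusted p = 0.046 with the block in limma). In the fit without the block it was -0.015 without si-NC replicate 1, -0.076 without si-NUF2 replicate 3, -0.47 without si-NC replicate 3 and -0.55 without si-NUF2 replicate 1. SCARB2, a lysosomal membrane protein that also serves as a sorting receptor, had log2 fold changes of 0.15 (SE 0.10) and -0.04 (SE 0.29) and was called by neither fit.

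TFEB, the transcription factor of the set, was at 3.55, 3.68 and 3.84 FPKM after si-NUF2 and 3.65, 3.47 and 3.25 with si-NC in 769-P. The ACHN libraries held 1.39, 1.98 and 1.32 FPKM after si-NUF2 against 1.54, 2.06 and 1.26. The groups overlapped in both lines, with log2 fold changes of 0.10 (SE 0.09) and -0.02 (SE 0.24). Of the 5 members with a CLEAR core in the window, CTSA and MCOLN1 were lower in 769-P with the block. GAA and LAMP1 were higher in that fit and GALNS was not called, while 13.6% of all genes were higher and 14% were lower. Without the block, only CTSA of these 5 was called in 769-P. In ACHN with the block, CTSA and MCOLN1 were lower and GAA, LAMP1 and GALNS were not called. Of all genes in that fit, 7.14% were higher and 5.05% were lower. A part of TFEB in these changes was not tested.

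The response of the lysosomal genes was compared between the lines by an interaction term in a fit of all 12 libraries. Without the block, 0 of the 39 members differed and 0% of the 16326 genes tested did, while 1 member and 4.77% of all genes had an unadjusted p under 0.05. With the block, LAMP2 and NEU1 differed, against 1.53% of all genes. The change of NEU1 in 769-P minus that in ACHN was -0.60 on the log2 scale (adjusted p = 0.97 without the block and 0.049 with it, in limma). For LAMP2 the difference was -0.65 (adjusted p = 1.0 without the block and 0.035 with it, in limma).

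FUCA2 and PPT1 were not called in this test, with differences of 0.08 (SE 0.06) and -0.09 (SE 0.10) with the block. The direction of change was the same in both lines for 27 of the 38 members tested in both (71.1%) and for 70.4% of the 12933 genes tested in both. No library entered both comparisons. Across members, the log2 fold changes of the lines had a Pearson correlation of 0.79 and a Spearman correlation of 0.76. Across all genes the values were 0.47 and 0.54. Members and all genes were not matched by level, and the difference between their correlations was not tested. The correlations are a description over genes that share libraries within each line.

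More members were called between the lines than between the siRNAs of a line, and the same held for all genes. With si-NC, 7 of 39 members (17.9%) were higher in 769-P, where 31.9% of 15377 genes were. These were CTSA, CTSC, CTSD, FUCA2, NEU1, SMPD1 and TFEB. Another 19 members (48.7%) were lower in 769-P, where 29.6% of all genes were. The 19 include CTSS, which reached 0.5 FPKM only in ACHN and so passed the filter only through that line. The median difference of 769-P from ACHN was -0.52 over the members and 0.03 over all genes on the log2 scale. With 1 cell line on each side, this test concerns these libraries only.

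PSAP had the highest mean level in both lines, at 585 ± 15.7 FPKM in 769-P and 646 ± 145 in ACHN (SD, n = 3). In 769-P it was followed by CTSD (170 ± 4.51), CTSZ (106 ± 6.39) and LAMP1 (56.0 ± 0.38), each with its 3 libraries apart from those of the next. CTSA and CTSB, at 47.3 and 45.2 FPKM, were next and overlapped. In ACHN, PSAP was followed by CTSZ (154 ± 7.17), CTSB (87.0 ± 71.9) and LAMP1 (82.9 ± 13.6), where CTSB overlapped both of its neighbours. CTSF was lowest in both lines, at 0. Of the 39 neighbouring pairs in the order of levels, the libraries overlapped for 28 in 769-P and for 34 in ACHN.

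CTSD was at 168, 175 and 167 FPKM in 769-P against 34.9, 30.4 and 30.5 in ACHN, a 5.42-fold difference (log2 2.44, SE 0.09, adjusted p = 3.1e-06 in limma). FUCA1 lay the other way, with a mean of 2.24 FPKM in 769-P and 9.75 in ACHN (log2 -2.04, SE 0.24, adjusted p = 0.00044 in limma), while FUCA2 was slightly higher in 769-P (log2 0.31, SE 0.08, adjusted p = 0.011 in limma). NPC2 and ARSA were lower in 769-P, by log2 differences of -1.20 and -1.57. The fucosidases thus differed between the lines in opposite directions. CTSS, counted among the 19 lower members, passed the filter on low levels only through ACHN. It was at 0.0723, 0.170 and 0.256 FPKM in the si-NC libraries of 769-P, from 9, 23 and 35 fragments, against 3.02, 1.01 and 10.8 FPKM in those of ACHN, so its call between the lines is given without a fold.

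TFEB and SMPD1 were higher in 769-P, by 1.10 (SE 0.19) and 1.07 (SE 0.26) on the log2 scale. NEU1 was higher in 769-P with si-NC (log2 0.76, SE 0.16, adjusted p = 0.0058 in limma), whereas in the si-NUF2 libraries the difference was 0.16 (adjusted p = 0.34 in limma). LAMP2 was not called between the lines with si-NC (log2 0.34).

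Genes with related roles outside the set were read the same way, beside the 5.29% of all genes higher and the 4.74% lower in 769-P. Among 26 other hydrolases tested in 769-P, 2 were lower. RNASET2, a ribonuclease, had a log2 fold change of -0.45 and CTSV, a cathepsin, of -0.78. Of 17 other membrane proteins and transporters, 1 was higher (CD164) and 4 were lower, of which LAPTM4A (-0.84), ABCB9 (-0.89) and TPCN1 (-0.53) had the largest log2 fold changes. The mean of LAPTM4A in 769-P was 62.9 FPKM after si-NUF2 against 113 with si-NC, and in ACHN it was 199 against 293.

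Of 19 V-ATPase subunits, which acidify the lysosome, 2 were higher (ATP6V0A4 0.60 and ATP6V0D1 0.46) and 1 was lower (ATP6V0B -0.68) in 769-P. Of 11 genes of mannose 6-phosphate sorting and sulfatase activation, 0 were higher and 1 was lower, GGA2, a Golgi adaptor (-0.28). Of 16 MiT/TFE factors and mTORC1 regulators, 2 were higher (LAMTOR1 0.31 and LAMTOR4 0.29) and 1 was lower (RRAGD -0.43). Of 20 autophagy genes, BECN1 (0.51) and WIPI2 (0.51) were higher and 0 were lower.

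In ACHN the limma fit without the block called 0 of the 109 genes tested of these 6 lists, and 9 had an unadjusted p under 0.05, as 8.19% of all genes had. With the block, 7.14% of all genes were higher and 5.05% were lower. It called CD164 and TMEM192 higher and LAPTM4A and TPCN1 lower among 17 membrane proteins, and 0 of 18 V-ATPase subunits. SORT1 was higher among 11 sorting genes, FNIP2 and LAMTOR4 among 15 regulators, and BECN1 and WIPI2 among 21 autophagy genes, where GABARAPL1 was lower. In 769-P with the block, 3 of the 26 other hydrolases were lower. The higher and lower counts there were 1 and 6 membrane proteins, 2 and 3 V-ATPase subunits, and 3 and 1 sorting genes. For both the regulators and the autophagy genes they were 2 and 4. Of all genes in that fit, 13.6% were higher and 14% were lower.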

How the data were processed

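Total RNA was sequenced from 12 libraries (769-P and ACHN, si-NUF2 or si-NC, 48 h, 3 replicates). The values the authors deposited are FPKM per gene. They filtered reads with fastp, and the submitters' processing notes name HISAT2 2.0.5, featureCounts 1.5.0-p3 and hg38. The annotation release and strand setting are not given in the sources used here.

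Within a line, FPKM were scaled by trimmed log ratios (30% and 5% trimmed; factors 0.990 to 1.01). Genes that reached 0.5 scaled FPKM in 3 or more of 6 libraries were fitted as log2(FPKM + 0.1) with limma 3.58.1 in R 4.3.3 (lmFit, eBayes with a trend), so fold changes of low genes are understated. The p-values were adjusted by Benjamini-Hochberg over all genes tested, and calls were made at 0.05. A quasi-likelihood test was planned for counts, but the unit is FPKM.

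Pairing was checked from the data: after group means were subtracted, libraries with the same number correlated at 0.190 to 0.355 in 769-P and at 0.460 to 0.735 in ACHN, so the replicate number was also fitted as a block. No 2 libraries of a group agreed within sampling noise. Fragments were recovered with GENCODE 29 exon lengths, and 96.9 to 97.4% of values under 20 fragments came out whole within 0.02. Precision was limited by the spread between replicates more than by counting error. The fit without the block was tested on simulated 769-P values with independent noise between libraries. The fit with the block was not tested in this way.

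The members and lists were chosen with earlier results of these data known. Values were given for FUCA2, members called in either fit, the highest and lowest members, those not tested, TFEB and LAMP1, and for at most 3 called genes per other list with the largest changes. GLB1, FUCA1 and other uncalled members, and genes overlapping a member, were added after their values were seen. Alternatives were median-ratio scaling, FPKM as deposited, pseudocounts of 1 and 0.01, no filter, all 12 libraries in 1 fit, each library left out, the block, and, chosen after seeing the data, limma-voom and the block with each pair left out. The calls of higher genes among the other hydrolases are not reported here.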

Additional observations from a re-analysis of the deposited data

Results flagged for a closer look

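The change of NEU1, the lysosomal sialidase, differed between the cell lines in the limma fit with the replicate block. Its log2 change in 769-P minus that in ACHN was -0.603 (adjusted p = 0.049 with the block and 0.97 without it). All 3 pairs moved down in both lines, by log2 differences of -1.09, -0.94 and -1.05 in 769-P and of -0.63, -0.26 and -0.38 in ACHN.

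LAMP2, a lysosome-associated membrane protein, differed in the same test, by -0.645 (adjusted p = 0.035 with the block and 1.0 without it, in limma). In 769-P its log2 differences within pairs were -0.76, -0.88 and -1.04, and those of ACHN were -0.27, -0.16 and -0.32. With the block, 1.53% of all genes differed between the lines, and 2 of the 39 members did.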

How the results depend on the processing

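None of the recomputed log2 changes, those of members called in at least 1 comparison, changed sign under an alternative, although CTSS in ACHN came to -0.0027 without si-NC replicate 3. Members called in no comparison were not recomputed. In 769-P, the 2 higher and 3 lower members became 7 and 6 with the replicate block, and leaving out 1 library gave 0 to 2 and 1 to 3. In ACHN, the counts of 0 and 0 became 2 and 7 with the block, and 1 higher in the fit of all 12 libraries. Starting from the block, 769-P went from 7 higher and 6 lower to 2 and 3 without it, to 2 higher with no filter on low levels, and to 2 to 5 and 3 to 6 with 1 pair left out. ACHN went from 2 and 7 to 0 and 0 without the block, to 0 and 0 with no filter, and to 0 to 1 and 0 to 1 with 1 pair left out. The interaction went from 0 to 2 members with the block. The log2 fold change of FUCA2 was between 0.3244 and 0.3805 in 769-P with 1 library left out, where 5 of the 6 fits lost the call, and 0.2773 in ACHN, called with the block. Counts of members that differed between the lines stayed within 1.5 times. Scaling and pseudocounts changed no count by more than 1.5 times. The cause of the losses without the filter was not tested. Removing a pair leaves fewer libraries. Levels of CTSF and, in 769-P, CTSS were too near 0 to be tested.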
